A study of Homo sapiens with 12 samples.

Results

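Hypoxia-inducible factors (HIFs) are transcription factors made of an oxygen-labile α subunit, encoded by HIF1A or EPAS1, and a stable β subunit. In the presence of oxygen, prolyl hydroxylases mark the α subunit for degradation through the von Hippel-Lindau protein. When the α subunit persists, the dimer binds a short DNA element around ACGTG or GCGTG and raises genes of glucose use, vessel growth, pH control and mitophagy. Proximal tubular cells are among the cells of the kidney with the highest demand for oxygen, and HIF1A is the α subunit best known in them. HIF activity is set mostly at the protein level, which arrays do not measure.

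The 10 genes described here were fixed by name and comprise the α subunits HIF1A and EPAS1, the prolyl hydroxylases EGLN1 and EGLN3, and the targets VEGFA, CA9, ADM, NDRG1, BNIP3 and ANKRD37. All of them are among the 25992 gene names on the array, where 12 probes represent them. RNA was taken from HK-2 cells, human proximal tubular cells (HPTC) immortalized with papillomavirus genes, and from RPTEC/TERT1 cells, HPTC immortalized with telomerase. Both lines had been deprived of serum and supplements and received fresh medium before they were given IL-1β (10 ng/mL), an inflammatory cytokine, or empagliflozin (Empa, 500 nM), an inhibitor of the glucose transporter SGLT2, or nothing, for 24 h. No hypoxic treatment is named in the labels. Each of the 6 groups holds 2 arrays, labelled as replicates 1 and 2, and the 12 arrays lie on 4 slides, each with control, IL-1β and Empa of a single line and replicate. The methods call the replicates biological duplicates, and each line is a single immortalized population.

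The array's 75th percentile, to which signals were scaled, lay between 298 and 765 signal units, and between 52.7% and 63.1% of the probes were well above background. Of 12 proximal tubule markers, 8 were well above background on all arrays, whereas ANPEP was so on 6 arrays, SLC34A1 on 4, CUBN on 1 and SLC22A6 on 0. Of 9 markers of other kidney, connective tissue, vessel or blood cells, 2 were (PTPRC and CD68). UMOD and COL1A1 were so on 11 arrays, NPHS1 on 5, VWF and COL3A1 on 2, PECAM1 on 1 and AQP2 on 0. A probe whose spots were all marked as outliers by the scanner software has no value. It counts here as not well above background, so a count under 12 need not mean a dim spot. UMOD was not tested because it lacked a value on the remaining array. Among 7 genes known for their response to IL-1β, 5 of the 6 tested rose with IL-1β in the same fit as below, CXCL1 by 6.24 (adjusted p = 0.00101) and NFKBIA by 3.69 (adjusted p = 0.00151) on the log2 scale (limma), both well above background on 12 arrays. The line labels stand in doubt. The control array of HK-2 replicate 1 correlated with that of RPTEC/TERT1 replicate 2 at r = 0.984 across 15324 probes, and HK-2 replicate 2 with RPTEC/TERT1 replicate 1 at r = 0.973. The arrays that share a line label correlated at 0.880 (HK-2) and 0.875 (RPTEC/TERT1). Results are therefore given per slide, and values per line stand under the labels as deposited.

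Of the 10 genes, 8 have an entry in the RefSeq promoter table used here (GRCh38.p14), all but VEGFA and NDRG1. The core ACGTG, or its reverse complement CACGT, occurred in the 250 bases before the start of 4 of them. Counted likewise, by gene and in any entry, 21.7% of 27305 genes held it. The 10 genes were named as HIF genes and known targets, so this share describes their choice. The genes with this core were EGLN1, ANKRD37, BNIP3 and CA9, and their windows are printed here. A link between the core and the differences with IL-1β described below was not tested. Capitals mark this core as read on either strand, and a longer run is a palindrome that holds it on both. The windows are chr1:231422288-231422537 on the minus strand for EGLN1, chr4:185396591-185396840 on the plus strand for ANKRD37, chr10:131981924-131982173 on the minus strand for BNIP3 and chr9:35673678-35673927 on the plus strand for CA9.
EGLN1: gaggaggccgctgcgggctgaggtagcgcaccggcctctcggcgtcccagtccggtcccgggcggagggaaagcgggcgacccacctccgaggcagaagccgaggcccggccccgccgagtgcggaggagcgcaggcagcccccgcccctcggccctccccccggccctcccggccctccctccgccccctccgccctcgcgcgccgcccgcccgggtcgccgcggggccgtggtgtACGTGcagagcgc
ANKRD37: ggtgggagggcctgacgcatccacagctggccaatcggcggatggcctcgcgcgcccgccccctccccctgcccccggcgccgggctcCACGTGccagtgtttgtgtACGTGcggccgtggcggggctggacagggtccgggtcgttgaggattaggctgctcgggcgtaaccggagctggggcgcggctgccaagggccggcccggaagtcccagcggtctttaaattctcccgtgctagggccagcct
BNIP3: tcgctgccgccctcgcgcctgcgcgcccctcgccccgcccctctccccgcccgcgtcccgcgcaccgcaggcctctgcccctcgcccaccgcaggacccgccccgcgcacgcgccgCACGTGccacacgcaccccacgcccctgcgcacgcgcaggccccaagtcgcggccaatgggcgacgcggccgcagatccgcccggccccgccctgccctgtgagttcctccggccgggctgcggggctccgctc
CA9: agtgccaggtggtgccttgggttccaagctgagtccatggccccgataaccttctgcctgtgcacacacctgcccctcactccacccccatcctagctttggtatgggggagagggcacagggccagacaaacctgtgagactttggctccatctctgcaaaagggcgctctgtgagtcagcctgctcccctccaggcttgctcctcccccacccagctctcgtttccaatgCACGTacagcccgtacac
In EGLN1 the element began 13 bases before the start, in CA9 18 bases and in BNIP3 134 bases. ANKRD37 held a pair of elements, the first of which began 162 bases and the last 143 bases before the start. HIF1A (2 entries), EPAS1, EGLN3 and ADM held no ACGTG in this window. The variant GCGTG, or CACGC, occurred in 32.2% of 35116 promoter entries and in those of HIF1A, EPAS1, ADM and BNIP3. A match describes the letters and not the binding of a factor, and targets can carry their element outside this window.

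Of the 10 genes, 6 passed the filter on dim and incomplete probes and were tested, namely HIF1A, EGLN1, EGLN3, VEGFA, ADM and ANKRD37. All 6 were well above background and unsaturated on all 12 arrays. The probe of CA9 was well above background on 2 arrays. EPAS1, BNIP3 and NDRG1 lacked values because the scanner software had marked their spot as non-uniform on 9, 8 and 2 arrays, respectively, although these spots were well above background on all 12. Levels are log2 signals relative to the 75th percentile of the array, so that 0 is the level of that percentile. They are compared within a probe and never between genes.

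In control cells, HIF1A and ADM varied more between slides than they did with treatment on any slide. HIF1A, which encodes the α subunit of HIF-1, was measured by a probe at chr14:62214845-62214904 (hg19) and stood at 2.25 in HK-2 replicate 1, 3.87 in HK-2 replicate 2, 3.99 in RPTEC/TERT1 replicate 1 and 2.31 in RPTEC/TERT1 replicate 2. ADM, which encodes the vasodilator peptide adrenomedullin, was measured at chr11:10328780-10328839 (hg19) and stood at 3.05, 0.35, 0.51 and 3.42 in the same order. For HIF1A the slides of RPTEC/TERT1 replicate 1 and HK-2 replicate 2 were high and the others low, and for ADM the order was turned. The range over the 4 control arrays was 1.74 for HIF1A and 3.06 for ADM, an 8.36-fold span. Over all genes tested the median range was 1.06, and 92.9% of genes had a smaller range than ADM.

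The hydroxylase EGLN3, which is itself known as a HIF target, was measured at chr14:34393422-34393481 (hg19) and was dim, at -2.96, -4.00, -3.34 and -2.50 in control. VEGFA, which encodes the main angiogenic growth factor, was measured at chr6:43753511-43753570 (hg19) and stood at 1.09, 0.74, 1.42 and 0.67. Neither gene separated the labelled lines, whose control values overlapped. EGLN1, which encodes the principal oxygen-sensing hydroxylase PHD2, was measured at chr1:231502149-231502208 (hg19) and stood at -0.39, -0.50, 0.00 and -0.15. ANKRD37, an ankyrin repeat protein gene known as a target of HIF-1, was measured at chr4:186321293-186321352 (hg19) and stood at -1.68, -1.59, -1.50 and -1.78. The control level of ANKRD37 was thus the most even of the 6, with a range of 0.29 that 4.07% of all genes undercut. Between RPTEC/TERT1 and HK-2 control arrays 0 of the 6 genes were called (limma, 6 groups, adjusted p = 1 for each), and 0% of all 15717 genes were. An unadjusted p under 0.05 was found for 171 genes. Each labelled line holds a slide of each pair whose control arrays correlated best. Differences between these pairs therefore count as spread within a line, and the test cannot show that the lines are alike. The largest of the 6 differences between the labelled lines was 0.56 ± 0.71 (SE) for EGLN3.

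**Figure D1:**
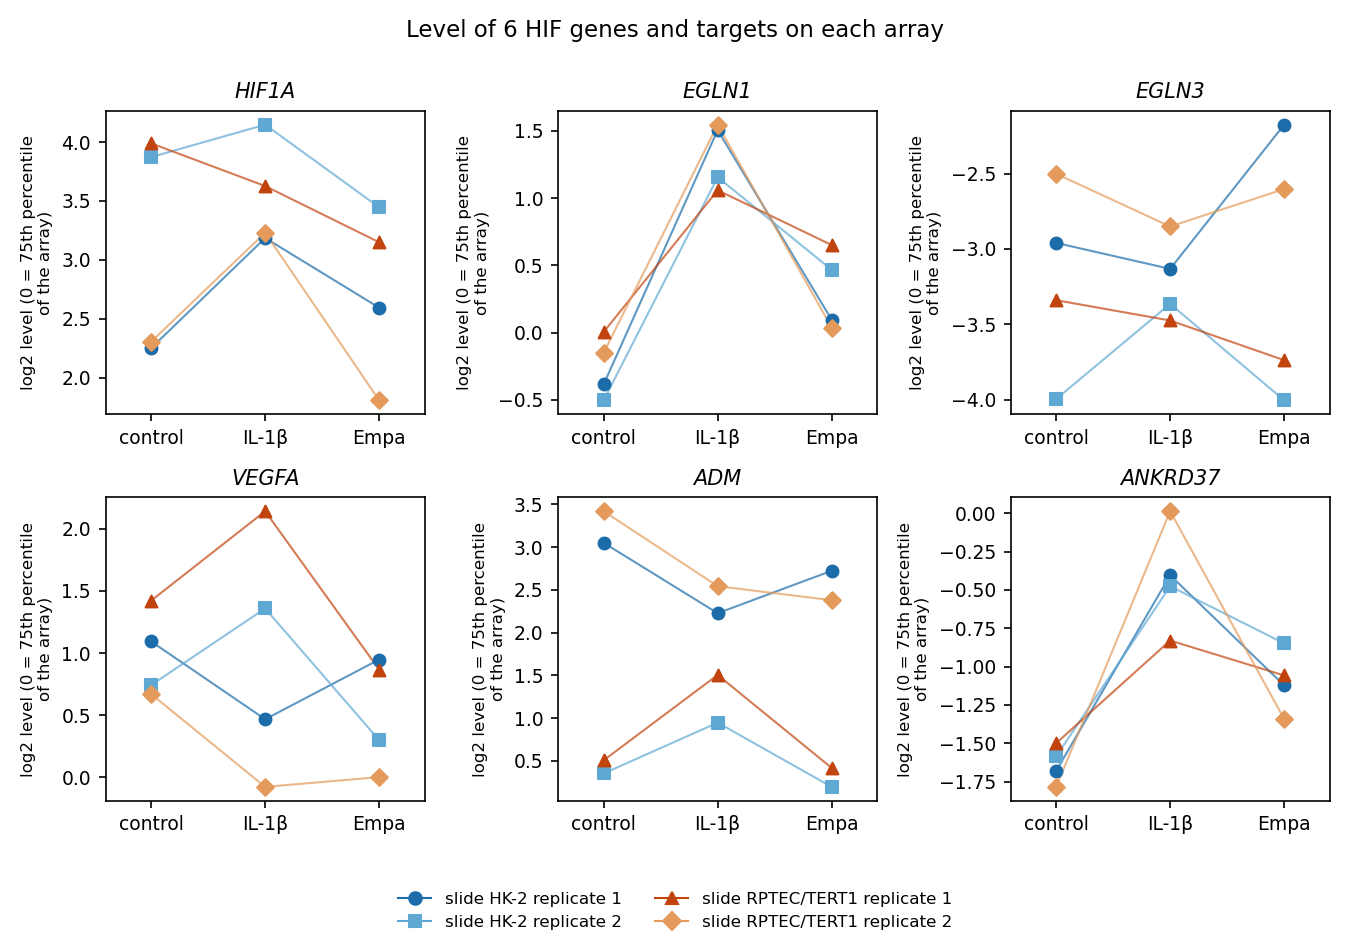
Log2 level (vertical axis, 0 = 75th percentile of the array, axis ranges differ between panels) of 6 genes in control, IL-1β and Empa arrays, with 1 point per array and a line joining the arrays of a slide. EGLN1 and ANKRD37 were higher with IL-1β than in any control array, whereas HIF1A and ADM spread over slides in control.

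The first comparison asked which of these genes the inflammatory ligand changed after 24 h. With IL-1β, EGLN1 and ANKRD37 rose on every slide, and HIF1A, EGLN3, VEGFA and ADM did not pass the test. EGLN1 reached 1.51, 1.16, 1.06 and 1.55 on the IL-1β arrays, in the order of slides used for the control levels. These values lay above all control arrays, whose highest was 0.00. Against the control array of the same slide, the differences were 1.89, 1.66, 1.05 and 1.70, with a mean of 1.58 ± 0.36 (SD, n = 4 slides), and the fit gave a 2.98-fold rise (log2 fold change 1.58 ± 0.21 SE, 95% interval 1.10 to 2.05, limma, adjusted p = 0.00257).

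ANKRD37 reached -0.40, -0.48, -0.83 and 0.01 with IL-1β, again above all control arrays, whose highest was -1.50. Its differences were 1.28, 1.11, 0.67 and 1.80, with a mean of 1.21 ± 0.47 (SD, n = 4 slides). The fit gave a 2.32-fold rise (1.21 ± 0.21 SE, 95% interval 0.75 to 1.68, limma, adjusted p = 0.00696). For both genes the difference was smallest on the slide of RPTEC/TERT1 replicate 1. Fitted without the slide as replicate block, the changes were of the same size and neither was called (limma, adjusted p = 0.0939 for EGLN1 and 0.202 for ANKRD37). Without the block, only 8 of all 15717 genes were called. With the block, the 2 calls among 6 tested genes stand against 12.4% of all 15717 genes called with IL-1β. Of all genes, 4.52% were called higher and 7.91% lower. The median log2 fold change of all genes was -0.11. A difference of the same sign on all 4 slides was not rare, since 15% of all genes were higher and 24.9% lower on every slide.

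HIF1A moved by 0.93, 0.27, -0.36 and 0.92 with IL-1β, higher on 3 slides and lower on RPTEC/TERT1 replicate 1. Its IL-1β arrays, from 3.19 to 4.15, overlapped with the control arrays, and the fitted change was 0.44 ± 0.24 SE (95% interval -0.11 to 0.99, limma, adjusted p = 0.273). The slides with a low control level of HIF1A were those with the larger differences. A low control array by itself raises the difference of its slide, so this order is no measure of the response. A further HIF1A probe in the coding region, at chr14:62211472-62211531 (hg19), gave a fitted change of 0.27 ± 0.44 SE and likewise did not pass the test when every probe was tested (limma, adjusted p = 0.726).

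EGLN3 moved by -0.17, 0.63, -0.13 and -0.35, and its fitted change was -0.01 ± 0.26 SE (95% interval -0.58 to 0.57, limma, adjusted p = 0.991). Its levels with IL-1β, between -3.48 and -2.85, lay within the range of the control arrays. The 2 hydroxylase genes thus gave different readings with IL-1β, although the difference between them was not tested.

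VEGFA moved in opposite directions on different slides, by -0.63, 0.62, 0.72 and -0.75 in the order of slides above. ADM did so on the same slides, by -0.82, 0.59, 1.00 and -0.88. Both genes were therefore higher with IL-1β on RPTEC/TERT1 replicate 1 and HK-2 replicate 2, and lower on the other slides, which are the pairs whose control arrays correlated best. These opposite differences averaged over the 4 slides to a fitted change of -0.01 ± 0.30 SE for VEGFA (95% interval -0.69 to 0.67, limma, adjusted p = 0.988) and of -0.03 ± 0.32 SE for ADM (95% interval -0.75 to 0.69, limma, adjusted p = 0.970). A mean near 0 is thus no measure of the size of the differences on single slides, and what set their direction was not tested.

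VEGFA has a further probe, which joins parts of the coding sequence that lie 412 bases apart end to end on the genome (chr6:43746223-43746634, hg19). Its differences with IL-1β were -0.65, 0.58, 0.51 and -0.10, of the same sign on every slide as those of the tested probe. The sequences of the further HIF1A and VEGFA probes, both from coding sequence, are given because each was a second reading of its gene.
HIF1A coding probe: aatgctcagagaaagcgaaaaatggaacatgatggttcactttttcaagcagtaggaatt
VEGFA coding probe: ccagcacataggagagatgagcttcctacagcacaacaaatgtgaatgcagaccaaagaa

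**Figure D2:**
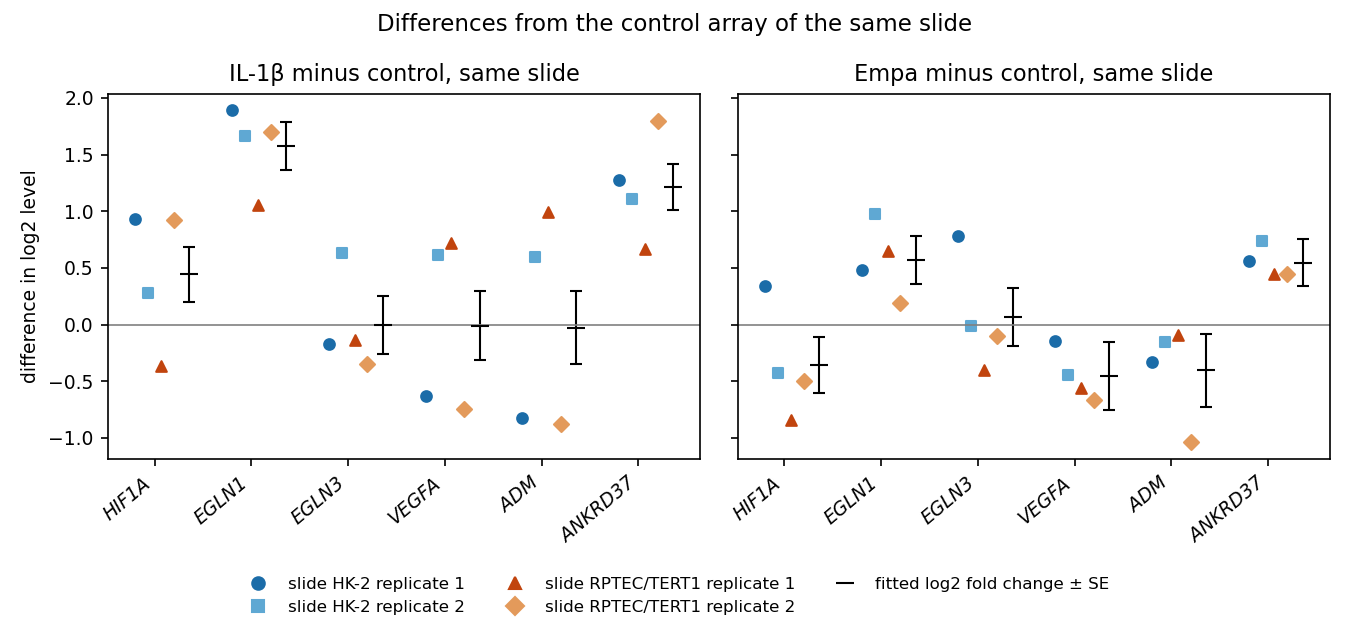
Difference in log2 level between a treated array and the control array of its slide (vertical axis), with 1 symbol per slide, for IL-1β (left) and Empa (right). Black bars are the fitted log2 fold change ± SE. With IL-1β the 4 symbols of EGLN1 and ANKRD37 lay above 0, and those of VEGFA and ADM fell to both sides of it.

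Taken by labelled line, the change of EGLN1 with IL-1β was 1.78 for HK-2 against 1.38 for RPTEC/TERT1, and the difference between the lines was -0.40 ± 0.47 SE (limma, adjusted p = 1). ANKRD37 changed by 1.19 and 1.23, with a difference of 0.04 ± 0.47 SE (limma, adjusted p = 1). For the other 4 genes the differences between the lines lay between -0.47 and 0.17 with adjusted p = 1 (limma). In this test 0% of all genes were called, whereas 272 had an unadjusted p under 0.05. Each labelled line again joins slides of both correlated pairs, so the test cannot show that the lines respond alike. Slides with the same replicate number carry the same scan date in the file headers. On the replicate 1 slides alone, EGLN1 changed by 1.47 and ANKRD37 by 0.97 (limma, adjusted p = 0.353 and 0.487), and on the replicate 2 slides alone by 1.68 and 1.45 (adjusted p = 0.153 and 0.183).

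CA9, which encodes the membrane-bound carbonic anhydrase IX, is a gene that many cells express only when HIF is active. Its probe spans an exon junction at chr9:35677817-35679204 (hg19) and was well above background in 0 of 4 control arrays, 2 of 4 IL-1β arrays and 0 of 4 Empa arrays. The level in HK-2 replicate 2 was -5.30, 1.31-fold above the lowest level well above background on its control array. In RPTEC/TERT1 replicate 1 it was -3.58, 3.09-fold above the reading of its control. That control reading, -5.20, was not well above background, although it exceeded the -5.30 that was. The counts of arrays thus rest on readings near the limit of detection. These are also the slides on which VEGFA and ADM were higher with IL-1β. On the other slides CA9 was not well above background with or without IL-1β. When dim probes were tested as well, CA9 did not pass (0.86 ± 0.49 SE, limma, adjusted p = 0.372).

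BNIP3, which encodes a mitochondrial protein of mitophagy, was tested only when marked spots were kept, because its spot at chr10:133781881-133781940 (hg19) was marked as non-uniform on all 4 IL-1β arrays and on the control arrays of HK-2. With these spots kept, BNIP3 stood at 3.48, 4.14, 4.57 and 3.46 in control and at 5.03, 5.34, 5.83 and 4.92 with IL-1β. All IL-1β values exceeded all control values. The differences were 1.55, 1.20, 1.25 and 1.46, and the fitted change was 1.36 ± 0.15 SE, a 2.57-fold rise (limma, adjusted p = 0.00106). In the table that the authors normalized from the same arrays, the differences lay between 0.95 and 1.40. The part of the non-uniform spots in this rise was not tested.

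NDRG1, a stress-responsive gene known as a HIF target, was measured at chr8:134249719-134249778 (hg19) and was marked on 2 arrays. With these spots kept, its control levels were nearly equal, at 3.82, 3.83, 3.90 and 3.87, and its differences with IL-1β were 0.81, -0.82, -0.13 and 0.28. They pointed to both sides, and the fitted change was 0.04 ± 0.26 SE (limma, adjusted p = 0.947).

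EPAS1, which encodes the α subunit of HIF-2, was marked on 9 arrays at chr2:46613666-46613725 (hg19), and no fit holds it because no group had both arrays unmarked. With marked spots kept its control levels were 2.48, 4.69, 4.57 and 2.87, high on the same slides as HIF1A. The differences with IL-1β were 0.67, -0.76, -1.08 and 0.09, positive where the control level was low and negative where it was high. Here too the control level is part of each difference.

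**Figure D3:**
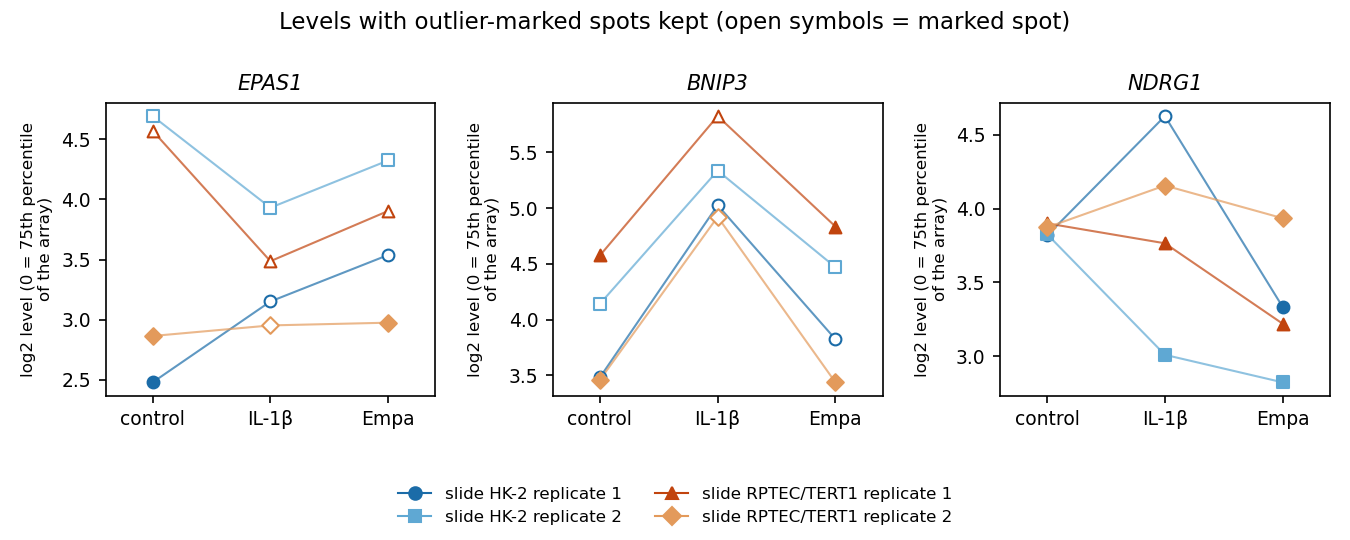
Log2 level (vertical axis, 0 = 75th percentile of the array) of EPAS1, BNIP3 and NDRG1 with the spots that the scanner software marked as non-uniform kept and drawn as open symbols. All 4 IL-1β values of BNIP3, between 4.92 and 5.83, are from marked spots and lie above the control values, between 3.46 and 4.57.

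A wider list of 88 genes was read to place the 10 genes within the pathway, of which 72 could be tested. With IL-1β 20 of them rose and 2 fell, which is 30.6% against the 12.4% of all genes, and 50 did not pass the test. The median log2 fold change was 0.56, against -0.11 for all genes. Of the 72 values 59 were positive, against 6241 of 15717 for all genes. The list was not tested as a set. Without the replicate block 0 of its genes were called, and of all 15717 genes only 8 were.

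Of the 13 subunits and regulators tested, 0 rose and 2 fell, with a median of -0.17. This is 15.4% called, close to the 12.4% of all genes, whereas 31.8% to 38.5% were called in the 3 groups of targets that follow. CITED2, which competes with HIF for the coactivator p300, fell by 1.45 ± 0.20 SE on the log2 scale and was lower on every slide (limma, adjusted p = 0.00296). ARNT2, a β subunit, fell by 0.88 ± 0.18 SE (limma, adjusted p = 0.0157). The main β subunit ARNT (-0.35), the hydroxylase gene EGLN2 (0.07), the asparaginyl hydroxylase gene HIF1AN (-0.17) and the ubiquitin ligase gene VHL (0.01) did not pass the test.

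Of the 24 genes of glucose use, 8 rose and 0 fell, with a median of 0.73. They were the glucose transporter SLC2A1 (0.73), hexokinase HK2 (1.31), the regulatory kinase PFKFB4 (1.48), phosphoglycerate kinase PGK1 (1.32), pyruvate dehydrogenase kinase PDK1 (0.95), the lactate exporter SLC16A3 (1.44), and GBE1 (0.98) and PPP1R3C, which serve glycogen synthesis. PPP1R3C rose 6.34-fold (2.66 ± 0.17 SE, limma, adjusted p = 0.000113), by 2.51 to 2.88 on the 4 slides. Lactate dehydrogenase LDHA (0.93, limma, adjusted p = 0.153), enolase ENO1 (0.50) and GAPDH (0.23) did not pass.

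Of the 13 secreted or cell surface targets tested, 5 rose and 0 fell, with a median of 1.84. LOX, which cross-links collagen, rose 12.9-fold (3.69 ± 0.61 SE, limma, adjusted p = 0.00646), by 1.84 to 5.48 on the 4 slides, and was well above background on 11 of 12 arrays. P4HA2, a collagen prolyl hydroxylase, rose 5.90-fold (2.56 ± 0.21 SE, limma, adjusted p = 0.00027), and the transferrin receptor TFRC rose 3.85-fold (1.95 ± 0.23 SE, limma, adjusted p = 0.00143). LOXL2 (1.93) and P4HA1 (0.64) were the other members called. The median is the value of IGFBP3, which did not pass (1.84 ± 1.14 SE, limma, adjusted p = 0.328). Its differences ran from -1.51 to 5.12. Among the 8 genes that did not pass were also STC2 (3.09 ± 1.14 SE), TMEM45A (1.85 ± 0.54 SE) and EFNA1 (-1.05 ± 0.38 SE).

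Of the 22 targets of feedback, mitophagy and stress, 7 rose and 0 fell, with a median of 0.57. They were HILPDA, a lipid droplet protein (1.98 ± 0.29 SE, limma, adjusted p = 0.00345), NAMPT, an enzyme of NAD synthesis also known to respond to inflammation (1.97 ± 0.28 SE, adjusted p = 0.0033), the oxidase of protein folding ERO1L (1.93 ± 0.48 SE, adjusted p = 0.0305), RIMKLA (2.71 ± 0.74 SE, adjusted p = 0.0430), FUT11 (1.00), INSIG2 (0.74) and the BNIP3 relative BNIP3L (0.50, adjusted p = 0.04996). RIMKLA was well above background on 10 of 12 arrays and its differences ran from 0.86 to 6.25. The lysine demethylase KDM3A (0.34) and the stress gene DDIT4 (-0.77) did not pass.

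**Figure D4:**
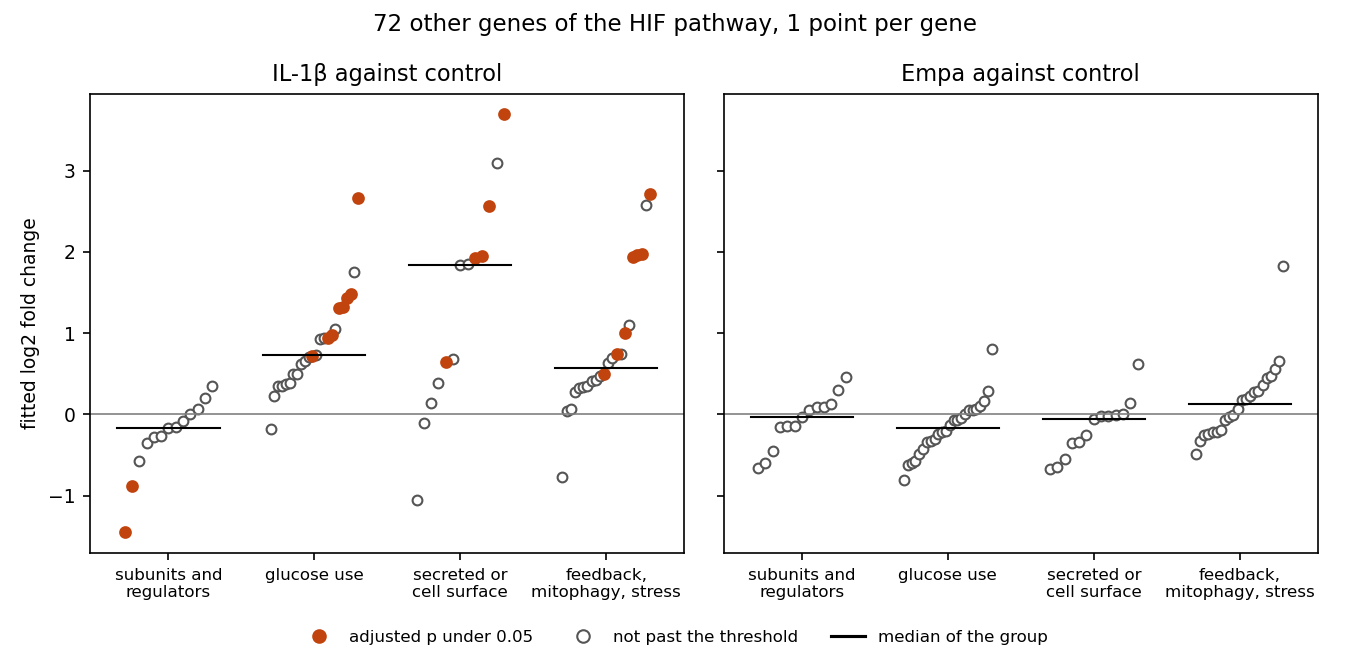
Fitted log2 fold change (vertical axis) of 72 other genes of the HIF pathway with IL-1β (left) and Empa (right), with 1 point per gene, ordered by value within 4 groups, filled where the adjusted p was under 0.05. With IL-1β 20 points above 0 and 2 below are filled, and with Empa 0 are.

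Of the wider list, 12 of the 16 genes that rose with IL-1β and have a promoter entry held ACGTG in at least 1 entry, and 22 of the 44 genes that were tested, were not called and have an entry did. Without the subunits and regulators, the latter count was 19 of 34 (55.9%). Counted in the same way, by gene and in any entry, 21.7% of 27305 genes with an entry held it. The targets were listed because they are known as such, so these shares describe the list and say nothing of IL-1β.

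Markers of the proximal tubule moved with IL-1β as well. Of 9 tested, 4 fell and 0 rose, against 7.91% of all genes called lower, and LRP2, the endocytic receptor megalin, fell by 2.44 ± 0.16 SE on the log2 scale. Of 4 epithelium markers 3 were tested, and CDH1, well above background on 6 arrays, was not. EPCAM fell by 0.98 ± 0.21 SE (limma, adjusted p = 0.0188), and the keratin genes KRT8 (-0.38) and KRT18 (0.16) did not pass. The mean log2 level of the 9 markers lay between -1.64 and -0.91 in the control arrays, between -2.25 and -1.71 with IL-1β and between -1.94 and -1.01 with Empa. Of 5 tested markers of other cells 0 were called, and their mean log2 level lay between -4.43 and -3.55 in control, -4.02 and -3.53 with IL-1β and -5.24 and -3.00 with Empa. In RNA of whole cultures, fewer cells of a kind and less RNA per cell cannot be told apart, and the part of these shifts in the results above was not tested.

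The second comparison asked whether Empa without IL-1β changed these genes, against the same 4 control arrays. None of the 6 tested genes was called (limma), 2 had an unadjusted p under 0.05, and the methods' t-test called 0. Over all genes, Empa gave 1 call, or 0.00636%, and 1887 unadjusted p under 0.05. That gene was DHRS2, a dehydrogenase/reductase gene (2.73 ± 0.24 SE, limma, adjusted p = 0.0176), named after its values were seen. It rests on the model used, since 0 genes were called with Empa without the replicate block, with an effect per line, with normexp, in the authors' table or with either other filter on dim probes, and 0 to 1 when single arrays were left out.

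EGLN1 stood at 0.10, 0.47, 0.65 and 0.04 with Empa, above all control arrays, and moved by 0.48, 0.97, 0.65 and 0.19 against its slide. The fitted change was 0.57 ± 0.21 SE (95% interval 0.10 to 1.05) and did not pass the adjustment (limma, adjusted p = 0.358). ANKRD37 stood at -1.12, -0.85, -1.06 and -1.34, also above all control arrays, and moved by 0.56, 0.74, 0.44 and 0.44. Its fitted change was 0.55 ± 0.21 SE (95% interval 0.08 to 1.01, limma, adjusted p = 0.364). The 2 genes were thus higher on 4 of 4 slides without passing the test, a pattern that 12.5% of all genes showed with Empa. The control arrays are shared with the IL-1β comparison, so a low control array raises both differences of its slide.

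VEGFA moved by -0.15, -0.44, -0.56 and -0.67 with Empa, lower on every slide. The fitted change was -0.45 ± 0.30 SE (95% interval -1.14 to 0.23, limma, adjusted p = 0.546). The coding probe of VEGFA was also lower on every slide, by -0.50, -0.73, -0.74 and -0.72, and did not pass when every probe was tested (-0.67 ± 0.25 SE, limma, adjusted p = 0.372). ADM was lower on every slide too, by -0.33, -0.16, -0.09 and -1.04, the last on RPTEC/TERT1 replicate 2, with a fitted change of -0.40 ± 0.32 SE (limma, adjusted p = 0.601). Over all genes, 13.9% were lower on 4 of 4 slides with Empa.

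HIF1A moved by 0.34, -0.43, -0.84 and -0.50 with Empa, with a fitted change of -0.36 ± 0.24 SE (95% interval -0.91 to 0.20, limma, adjusted p = 0.558). Its coding probe moved by -2.03 on HK-2 replicate 1, where the tested probe was higher, and by -0.25, -0.33 and 0.17 on the other slides. The 2 probes of HIF1A thus differed in direction on HK-2 replicate 1 and RPTEC/TERT1 replicate 2. EGLN3 moved by 0.79, -0.01, -0.40 and -0.10, with a fitted change of 0.07 ± 0.26 SE (limma, adjusted p = 0.919). With marked spots kept, BNIP3 changed by 0.23 ± 0.15 SE (limma, adjusted p = 0.546) and NDRG1 by -0.53 ± 0.26 SE (adjusted p = 0.443). EPAS1 moved by 1.06, -0.37, -0.67 and 0.11.

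Of the 72 other genes of the pathway, 0 were called with Empa (limma), 7 had an unadjusted p under 0.05, and the methods' t-test called 0. Their median log2 fold change was -0.05, against -0.02 for all genes. Of the 72 values 29 were positive, against 7411 of 15717 for all genes. PPP1R3C was higher on 4 of 4 slides (0.81 ± 0.17 SE) and did not pass the adjustment (limma, adjusted p = 0.216). Between the labelled lines, the differences in the response of the 6 genes to Empa lay between -0.64 and -0.21 with adjusted p = 1 (limma). Of all genes 0% were called, with 154 at an unadjusted p under 0.05. As with IL-1β, this test cannot show that the lines respond alike.

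The genes whose pattern was most like that of HIF1A and VEGFA were sought over the 12 arrays, after each value was taken relative to the mean of its slide. For HIF1A they were a transcript without a gene symbol (Pearson r = 0.979), LIMS2 (r = 0.961) and RGS20 (r = 0.954). For VEGFA they were FJX1 (r = 0.969), BZW2 (r = 0.949) and ELL2 (r = 0.946). These are the highest values among all genes tested, so large values arise from the search itself. The values of a slide are taken relative to their own mean, so the 12 values are not independent.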

How the data were processed

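RNA of 12 cultures was hybridized to one-color Agilent oligonucleotide arrays. The authors read them with Agilent Feature Extraction 9.5.3.1, which, per the file headers, subtracted a background from each deposited intensity and corrected it for trends across the array. Arrays were not normalized to each other in those files. A second deposited table, of log2 values described as quantile-normalized, served as an alternative. Dim probes depend on the background step, and the number of arrays limits the precision.

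Control spots (1377 of 44495) and spots marked as outliers were dropped. The remaining spots of a probe were averaged, and probes had to have a value on each of the 12 arrays. Signals were divided by the array's 75th percentile, kept at no less than 1 signal unit on the common scale and log2-transformed. Probes had to be well above background in both arrays of 1 or more groups, and of a gene's probes the brightest was used (15717 genes). The main model, in limma 3.58.1 (R 4.3.3), had the slide as replicate block and 1 effect per treatment. P-values were adjusted after Benjamini-Hochberg over all genes, and a gene is called where the adjusted p is under 0.05. Arrays with the same line and replicate number shared a slide and were therefore treated as paired. Deviations from the group mean correlated within a slide at r from 0.592 to 0.906, but with 2 arrays per group they mirror each other, so this is only a weak check of the pairing. Line differences came from a model with an effect per line, and control lines from one with 6 groups. Intervals use limma's moderated degrees of freedom. Promoters came from RefSeq (GRCh38.p14) and probe positions from the array files (hg19).

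The genes named are the 10 genes, up to 8 others of the pathway list per treatment with the largest called change, and the 3 genes most like HIF1A and VEGFA. Other genes of the lists are named beside them to show what was and was not called. The 10 genes, the lists and the tests were chosen with earlier results of these data known. The procedure was tested on simulated data. Alternatives were no block, an effect per line, each line alone, quantile and normexp normalization (offset 50), the authors' table, and other filters and floors. Further alternatives were every probe, outlier spots kept, an unpaired t-test, and leaving out each array. The methods name unpaired t-tests beside the PCR and ELISA data, whereas the study chose its array genes by the direction of change. The slides of each replicate number alone were added after the data were examined. Figures were drawn with matplotlib.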

Additional observations from a re-analysis of the deposited data

How the results depend on the processing

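The fit without the replicate block called 8 genes with IL-1β, 0 of the 10 genes and 0 of the wider pathway list. An effect per line, averaged, called 864 genes and 14 of the list. HK-2 alone gave 47 genes, 0 of the 10 and 1 of the list, and RPTEC/TERT1 alone 0, 0 and 0. The unpaired t-test called 46 genes, 1 of the 10 (EGLN1) and 2 of the list. The slides of either replicate number alone gave 0, 0 and 0. Leaving out single arrays gave 790 to 2963 genes and 12 to 29 of the list, with 2 of the 10 genes called each time. The arrays that moved these counts by over 1.5 times were the HK-2 controls of replicates 1 (804 genes, 12 of the list) and 2 (1036, 14), the RPTEC/TERT1 controls of replicates 1 (1268 genes) and 2 (790, 13), the IL-1β arrays of HK-2 replicate 1 (1057 genes) and RPTEC/TERT1 replicate 2 (811, 14) and the Empa array of HK-2 replicate 1 (2963 genes). With Empa, 0 genes were called without the replicate block, with an effect per line, in RPTEC/TERT1 alone, with normexp, in the authors' table, with either other filter, with a floor of 5 signal units and in the slides of either replicate number, 3 in HK-2 alone, 2 by the t-test, and 0 to 1 with single arrays left out.

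EGLN1 with IL-1β kept its direction in 27 alternatives (1.29 to 1.78) and lost its call in 5, and ANKRD37 (0.80 to 1.45) in 6. Without the replicate block their adjusted p were 0.0939 and 0.202 (limma), and over all alternatives up to 0.353 and 0.487. HIF1A kept its direction under both treatments, and so did EGLN1, ANKRD37, VEGFA and ADM with Empa. The changes near 0 turned. ADM with IL-1β was 0.0607 in RPTEC/TERT1 alone and 0.0875 in the replicate 1 slides (-0.32 to 0.25 with arrays left out). EGLN3 with IL-1β was 0.23 in HK-2 alone, 0.19 after quantile normalization, 0.0489 after normexp, 0.0601 in the authors' table and 0.14 in the replicate 2 slides (-0.23 to 0.17). EGLN3 with Empa was -0.25 in RPTEC/TERT1 alone, -0.0294 in the authors' table and -0.0549 in the replicate 2 slides (-0.20 to 0.20). VEGFA with IL-1β was 0.0078 after quantile normalization, 0.0234 after normexp and 0.0467 in the replicate 1 slides (-0.27 to 0.25). The cause was not tested, beyond the fewer arrays in fits of a line or replicate number alone.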
